A study of Mus musculus with 2 samples.

Results

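Cytosolic ribosomal protein genes encode the protein parts of the 2 subunits of the cytosolic ribosome. They were taken here as every gene symbol in the deposited feature lists made of Rpl or Rps and a number, with Rplp0, Rplp1, Rplp2 and Rpsa added and with pseudogenes and the Rps6k kinases left out. The rule found 83 genes of 32245 symbols, 51 of the large subunit and 32 of the small subunit. Of these, 81 had at least 20 UMIs (unique molecular identifiers, counted RNA molecules) over both libraries. Rpl39l had 6 and 4 UMIs and Rpl10l, a retrotransposed copy known from testis, had none. A UMI marks the 3′ end of 1 RNA molecule, so levels are given in CPM (the counts-per-million scale, taken over the non-mitochondrial UMIs of the class) and are not divided by gene length.

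The data are 2 single-nucleus RNA libraries from mouse cardiac tissue, made with the 10x Genomics 3′ v3 kit. The CF-KI library comes from Tcf21-MerCreMer;Nlrp3-A350V/A350V mice and the Control library from Tcf21-MerCreMer;Nlrp3-WT/WT mice. Both are male C57Bl6/J mice at 3.5 months of age that received tamoxifen, which switches on the Cre recombinase that both groups carry under Tcf21, a gene of cardiac fibroblasts and their epicardial precursors. The A350V change gives an active form of the inflammasome sensor NLRP3, per the design text only in cells with Cre, and the number of animals in a library is not given in the sources used here.

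Ribosomal protein mRNAs are short, very abundant and long-lived, and nearly all of them are found in the cytoplasm, on ribosomes. Many start with a 5′ terminal oligopyrimidine run (5′ TOP), a C followed by further C or T bases, through which the growth kinase mTOR controls their translation. In a preparation of nuclei, which keeps introns and retained RNAs such as Malat1, their share of the UMIs is used as a measure of cytoplasmic RNA that stays with the nucleus or enters its droplet.

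The CF-KI library held 15077 barcodes and 21603653 UMIs and the Control library 11257 barcodes and 18040776 UMIs, and 46 barcode sequences occurred in both. The libraries stood apart in mitochondrial RNA, with a median share of 14.2% of UMIs per barcode in CF-KI and 3.46% in Control, and in haemoglobin RNA, with 1.94% and 0.293% of non-mitochondrial UMIs. After barcodes with under 200 genes and called doublets were left out, 13094 CF-KI and 10183 Control nuclei remained and fell into 18 clusters. Clusters were named from marker genes with the ending -like, and each of the 4 main classes had most of its own markers raised (6 of 8 for cardiomyocyte-like, 8 of 8 for fibroblast-like and macrophage-like, 7 of 7 for endothelial-like nuclei). One cluster of barcodes with a median mitochondrial share of 65.2% in CF-KI and 59.3% in Control was left without a cell type and is called the high mitochondrial cluster. With 1 library per group there is no replicate check, no test and no p-value. Intervals are 95% intervals that take in counting error alone, and every difference is between these 2 libraries.

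Ribosomal protein mRNAs made up 3.07% (3.06 to 3.08) of non-mitochondrial UMIs in CF-KI nuclei and 1.86% (1.86 to 1.87) in Control nuclei, a difference of 1.21 percentage points and a 1.65-fold higher share in CF-KI. With only nuclei of at most 5% mitochondrial UMIs the difference was 0.0973 points. The median nucleus had a share of 2.87% in CF-KI, with quartiles of 1.83% and 4.16%, and of 1.35% in Control, with quartiles of 0.730% and 2.24%. Every CF-KI nucleus and all but 2 Control nuclei had a member UMI. When each nucleus was thinned to 500 non-mitochondrial UMIs, which left out 1950 CF-KI and 321 Control nuclei, the mean was 15.8 member UMIs per nucleus in CF-KI and 9.26 in Control.

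Classes differed more than the libraries did. In Control the lowest share was that of cardiomyocyte-like nuclei, at 0.467% (0.462 to 0.473), and the next that of adipocyte-like nuclei, at 0.588% (0.559 to 0.617). Airway epithelial-like nuclei, found in Control alone (108 nuclei), had 1.20%. Pericyte-like nuclei had 1.53%, mesothelial-like 1.77%, fibroblast-like 2.14%, lymphatic endothelial-like 2.20% and endocardial-like 2.28%. The intervals of the fibroblast-like and lymphatic endothelial-like shares, 2.13 to 2.16 and 2.11 to 2.29, overlapped, and so did that of the endocardial-like share, 2.25 to 2.31, with the latter. Macrophage-like nuclei had 2.69%, endothelial-like nuclei 5.72% (5.68 to 5.77) and B cell-like nuclei 16.4% (16.2 to 16.6). The 10 leading genes of the B cell-like cluster held Ccl5 and Gzma beside Igkc, Ighm and Cd79a. Other lymphocytes may thus be among its nuclei, which was not tested.

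The same classes stood at the ends in CF-KI. Cardiomyocyte-like nuclei had 1.08% (1.07 to 1.09), adipocyte-like nuclei 1.36% (1.30 to 1.41), endothelial-like nuclei 7.08% (7.05 to 7.12) and B cell-like nuclei 17.4% (17.2 to 17.6). The other named classes compared lay close together, from 2.78% in macrophage-like to 3.31% in pericyte-like nuclei, with fibroblast-like nuclei at 2.85%, mesothelial-like at 2.83% and endocardial-like at 3.05%.

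**Figure D1:**
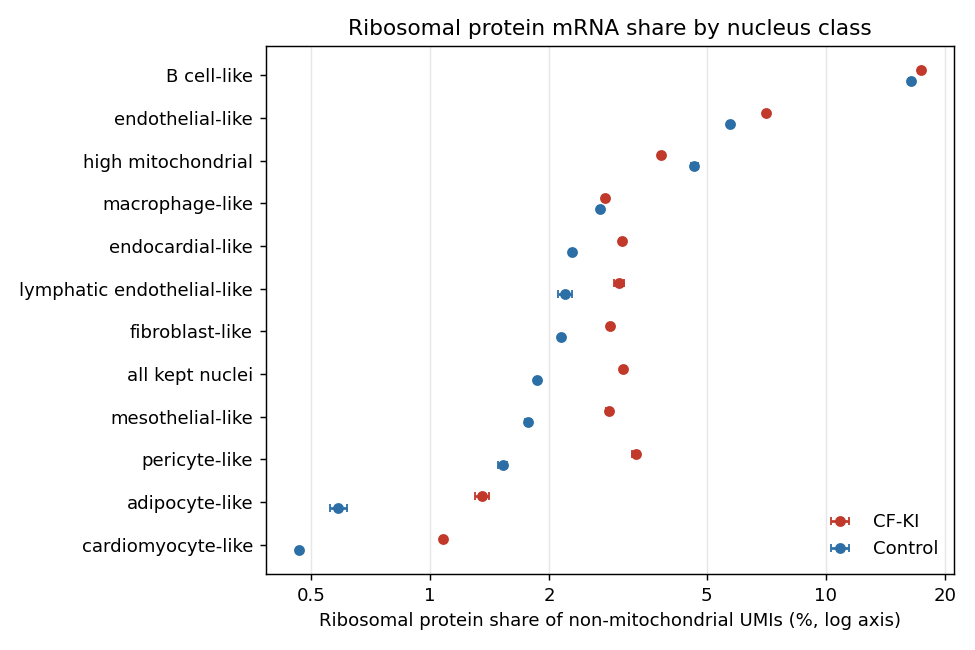
Ribosomal protein share of non-mitochondrial UMIs (%, log axis) in each nucleus class with at least 50 nuclei in both libraries, as the pooled share of each library (points) with its exact binomial 95% interval (bars). The CF-KI point lies to the right of the Control point in every class plotted except the high mitochondrial cluster, where CF-KI had 3.83% and Control 4.65%.

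Of the 11 classes with at least 50 nuclei in both libraries, 10 had a higher pooled share in CF-KI. The folds were 2.31 in adipocyte-like and 2.30 in cardiomyocyte-like nuclei, 2.16 in pericyte-like, 1.60 in mesothelial-like, 1.37 in lymphatic endothelial-like, 1.34 in endocardial-like, 1.33 in fibroblast-like, 1.24 in endothelial-like, 1.06 in B cell-like and 1.03 in macrophage-like nuclei. The pooled share of the high mitochondrial cluster went the other way, with 3.83% in CF-KI and 4.65% in Control (1907 and 208 barcodes, difference -0.829 points, -0.935 to -0.724). Its median barcode did not, with 4.56% in CF-KI and 3.82% in Control. In Control, 10 barcodes with a share of at least 10% held 24.4% of the member UMIs of the cluster. Without such barcodes the pooled shares were 3.76% in CF-KI and 3.88% in Control. Haemoglobin RNA was 18.5% of the non-mitochondrial UMIs of that cluster in CF-KI and 2.30% in Control, and the 8 cardiomyocyte markers together were at 86587 and 133462 CPM; the part of either in the difference was not tested.

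Fibroblast-like nuclei of the libraries lay in the same clusters but in different proportions. The largest cluster held 2519 CF-KI and 1356 Control nuclei and had shares of 2.83% and 1.41%. The next held 872 and 1842 nuclei, with 2.83% and 2.34%, and the next after that 378 and 274 nuclei, with 3.05% and 2.89%. The share was thus higher in CF-KI in these 3, by amounts that differed between them, and a small one held 14 and 27 nuclei, with 2.67% and 1.62%. In endothelial-like nuclei the 2 clusters gave 7.79% against 7.17% (947 and 404 nuclei) and 4.78% against 2.45% (650 and 430 nuclei). The smaller cardiomyocyte-like cluster, of 55 CF-KI and 109 Control nuclei, had 2.55% and 1.53%, and the larger had 1.05% and 0.433%.

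A small number of nuclei carried very high shares. A share of at least 10% was found in 285 CF-KI nuclei (2.18%, 1.93 to 2.44) and 112 Control nuclei (1.10%, 0.906 to 1.32). They had more UMIs than the rest, with medians of 1534 against 804 in CF-KI and 2365 against 1025 in Control. Malat1, a long noncoding RNA kept in the nucleus, was 3.34% of their UMIs in CF-KI and 1.95% in Control, against 23.2% and 30.9% in the other nuclei. The nuclei were picked by member share, and 213 of the CF-KI and 55 of the Control ones were endothelial-like. Among endothelial-like nuclei Malat1 was 2.76% against 7.10% in CF-KI and 1.62% against 9.19% in Control. Median UMIs there were 1534 against 878 and 2284 against 757. Some classes went the other way in UMIs, as in the 3 Control cardiomyocyte-like nuclei, with 786 against 2268.

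In the B cell-like class the nuclei with very high member shares set the pooled share. Of 73 CF-KI nuclei 25 (34.2%) reached a share of 10% and held 92.9% of the member UMIs of the class, and of 118 Control nuclei 22 (18.6%) did so and held 91.0%. The remaining B cell-like nuclei had 3.34% and 2.71%, and the median nucleus had 4.12% and 3.13%. In macrophage-like nuclei 16 and 9 nuclei held 37.1% and 40.2% of the member UMIs. There the pooled shares of 2.78% and 2.69% were nearly equal, while the median nucleus had 2.31% in CF-KI and 1.46% in Control. Among endothelial-like nuclei 213 in CF-KI (13.3%) and 55 in Control (6.59%) reached a share of 10%. Among cardiomyocyte-like nuclei 0 of 2440 in CF-KI, which allows up to 0.151%, and 3 of 2239 in Control did.

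Across nuclei of a class, member share and mitochondrial share were mostly positively related, as a description with no test, since both are parts of the same barcode's UMIs. Spearman's rho was 0.43 in cardiomyocyte-like nuclei of both libraries. It was 0.45 in Control and 0.16 in CF-KI fibroblast-like nuclei, and 0.51 and 0.34 in macrophage-like nuclei. It was negative in CF-KI endothelial-like nuclei (-0.27, 0.21 in Control) and in B cell-like nuclei (-0.50 in CF-KI, -0.11 in Control). With the Malat1 share of non-mitochondrial UMIs rho was negative in each of these classes, for example -0.49 and -0.50 in cardiomyocyte-like and -0.72 and -0.81 in endothelial-like nuclei (CF-KI, then Control).

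Nuclei were then compared at matched mitochondrial share, in bins of 0 to 1, 1 to 2, 2 to 5, 5 to 10, 10 to 20, 20 to 50 and 50 to 100% mitochondrial UMIs. In Control cardiomyocyte-like nuclei the member share was 0.391% (0.385 to 0.396, 1808 nuclei) in the lowest bin, 0.594% at 1 to 2%, 0.832% at 2 to 5% and 1.39% at 5 to 10%. In CF-KI the same bins gave 0.732% (0.701 to 0.764, 107 nuclei), 0.845%, 1.04% and 1.32%. CF-KI was thus higher below 5% mitochondrial UMIs, while the intervals of the 5 to 10% bin, 1.30 to 1.34 and 1.31 to 1.48, overlapped. In that bin the median nucleus had 1.35% in CF-KI and 0.742% in Control (587 and 32 nuclei), so that the pooled shares met and the medians did not. The bin of 10 to 20%, with 19 Control nuclei, was not used, and there CF-KI had 1.54% and Control 2.80%. Averaged over the 5 bins that held 20 or more nuclei of both libraries, the difference was 0.258 points (0.236 to 0.279), against 0.610 without matching.

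Fibroblast-like nuclei gave a smaller gap at higher mitochondrial share. The shares were 3.22% in CF-KI and 1.86% in Control at 2 to 5% (52 and 932 nuclei), 2.73% and 2.35% at 5 to 10%, 2.81% and 2.52% at 10 to 20%, and 3.03% and 2.69% at 20 to 50%. The matched difference was 0.490 points (0.454 to 0.525), against 0.711 unmatched. Below 2% the Control library had 489 fibroblast-like nuclei and CF-KI had 2, so no comparison could be made there.

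Endothelial-like nuclei had a matched difference of 1.90 points (1.82 to 1.97), larger than the unmatched 1.36. Their CF-KI share was 7.87% at 5 to 10% mitochondrial UMIs and 5.61% at 20 to 50%, where Control had 5.44% and the intervals overlapped. In macrophage-like nuclei the direction depended on the bin: CF-KI was higher at 2 to 5% (4.56% against 3.93%) and at 5 to 10% (2.82% against 2.67%), and lower at 10 to 20% (2.12% against 3.15%) and at 20 to 50% (2.80% against 3.43%). The median nucleus was closer between libraries, with 1.24% in CF-KI and 1.36% in Control at 2 to 5%, 1.82% and 1.73% at 5 to 10%, 2.33% and 2.39% at 10 to 20%, and 2.85% and 3.33% at 20 to 50%. The matched difference of the pooled macrophage-like shares was -0.150 points (-0.212 to -0.088), against 0.0915 unmatched.

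**Figure D2:**
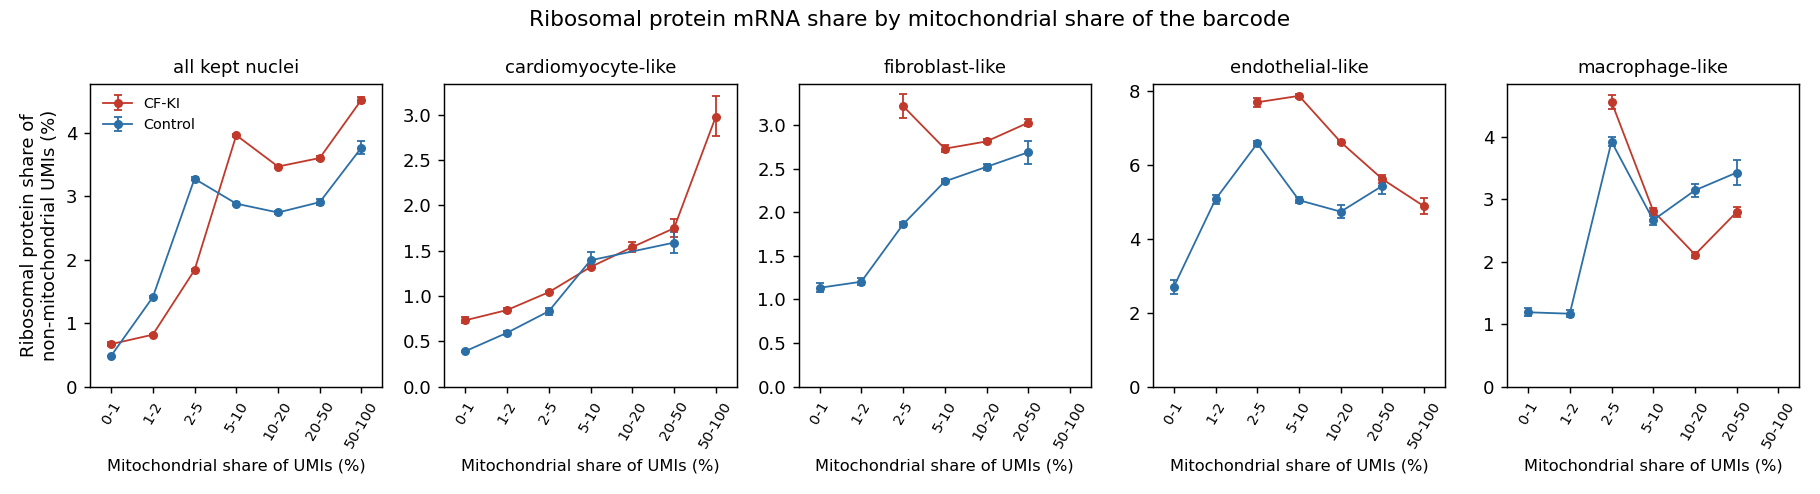
Ribosomal protein share of non-mitochondrial UMIs (%) by the mitochondrial share of the barcode (%, 7 bins) in all kept nuclei and the 4 main classes, one line per library, with exact binomial 95% intervals; bins with under 20 nuclei are not drawn. In cardiomyocyte-like nuclei both lines are higher at higher mitochondrial share and the pooled shares meet at 5 to 10%, in fibroblast-like nuclei CF-KI lies above Control in all 4 shared bins, and in macrophage-like nuclei the lines cross.

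Over all nuclei the matched difference was 0.161 points (0.148 to 0.174), with CF-KI higher in 5 of 7 bins. At 1 to 2% and 2 to 5% mitochondrial UMIs Control was higher (1.41% against 0.817%, and 3.27% against 1.83%). CF-KI barcodes in these bins were mostly cardiomyocyte-like (395 of 431 and 1162 of 1551), and Control barcodes were not (224 of 1212 and 116 of 2384). The part of this mix of classes in the matched difference was not tested. Without the endothelial-like class the matched difference was -0.0472 points, and with nuclei of at most 5% mitochondrial UMIs alone it was -0.584 points.

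Member levels were closely correlated between the 2 libraries, though the ratios of single members differed, for example 0.28 for Rpl10 and 1.17 for Rps29 (log2). Over the 82 members with a UMI in both, log2 levels in CF-KI and Control had a Pearson r of 0.987, across genes, which are not independent. The 10 highest members held 21.5% of member UMIs in Control and 21.4% in CF-KI. Among them, Rpl13, a large subunit protein (ENSMUSG00000000740, chromosome 8, 123102350 to 123105244, plus strand, GRCm38), had 486 CPM (475 to 498) in Control and 786 (771 to 801) in CF-KI. With Control given first, the levels of the next were 469 and 670 CPM for Rps21, 463 and 787 for Rplp1, part of the acidic stalk that binds elongation factors, 375 and 662 for Rps24, and 357 and 613 for Rpl23. Rpl6, Rps12, Rps27a, which is made as a fusion with ubiquitin, and Rps14 lay between 307 and 332 CPM in Control.

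The lowest detected members, after Rpl39l, were Rpl7l1 (27.9 CPM in Control), Rpl3l (38.7), Rps27l (52.5) and Rpl31 (78.2), 3 of them paralogs. Of the 83 members, 60 have at least 1 pseudogene that carries their name in GENCODE, among them Rpl31 with 24 and Rps12 with 23. Reads that match a member and its pseudogenes equally well may not have been counted, which was not tested, so levels between such members are uncertain.

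Members are compact genes: the median span from start to end was 3368 bases over the 81 detected members and 21664.5 bases over 15956 detected genes. The start sites show the sequence feature that the family is known for. RefSeq promoters on GRCm38.p6 were given for 63 of the 83 members. A run of C followed by at least 6 C or T, on the gene's strand and beginning within 5 bases of the annotated start, was found in 23 of them (36.5%), against 7.64% of 27025 genes and 6.48% of 32851 promoters. Among mitochondrial ribosomal protein genes, whose products serve the other ribosome of the cell, 2 of 69 (2.90%) had it. A match is a description of these letters, and no match says nothing about the mRNA's real start. The windows below, 10 bases before and 20 from the start, show the run in capitals for the 8 members with a run that are named here by their level, range or ratio, so that the runs can be compared.
Rpl31: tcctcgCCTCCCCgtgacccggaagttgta
Rpl35: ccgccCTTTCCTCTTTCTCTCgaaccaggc
Rps21: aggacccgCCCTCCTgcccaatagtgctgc
Rpl22l1: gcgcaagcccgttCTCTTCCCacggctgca
Rps27: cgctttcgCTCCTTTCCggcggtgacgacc
Rpl13a: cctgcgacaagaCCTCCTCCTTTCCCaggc
Rps15a: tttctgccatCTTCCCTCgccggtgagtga
Rps24: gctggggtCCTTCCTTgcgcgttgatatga
These windows are at chr1:39367841-39367870 (Rpl31, plus strand), chr2:39005112-39005141 (Rpl35, minus), chr2:180257369-180257398 (Rps21, plus), chr3:28805498-28805527 (Rpl22l1, plus), chr3:90213629-90213658 (Rps27, minus), chr7:45128726-45128755 (Rpl13a, minus), chr7:118116128-118116157 (Rps15a, minus) and chr14:24490668-24490697 (Rps24, plus). The longest run of the 8 is that of Rpl35, with 16 bases, and the shortest are those of Rpl31 and Rps21, with 7.

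Most members were highest in the class with the highest share of the family. With the high mitochondrial cluster left out, 78 members in Control and 79 in CF-KI were highest in B cell-like nuclei. The exceptions were Rpl3l, Rps27l (highest in lymphatic endothelial-like nuclei in Control and in endothelial-like nuclei in CF-KI) and, in Control, Rpl7l1 (endothelial-like, 66.3 CPM). The same count over all genes was not made. In the B cell-like class 22 of 118 Control and 25 of 73 CF-KI nuclei held 91.0% and 92.9% of the member UMIs. The pooled member levels of that class, also those below, thus rest mostly on these nuclei. The members with the widest spread over Control classes were Rpl35, Rps16, Rpl13a, Rpl17 and Rpl39. Each was highest in B cell-like nuclei, where Rpl35 had 986 CPM, Rps16 3334, Rpl13a 2875, Rpl17 2547 and Rpl39 1732. The lowest class was adipocyte-like for Rps16 (43.7, from 12 UMIs) and for Rpl35 (10.9, from 3 UMIs). It was cardiomyocyte-like for Rpl13a (37.8), Rpl17 (40.9) and Rpl39 (28.1), so that Rpl13a was 76.1-fold and Rpl39 61.7-fold higher in B cell-like than in cardiomyocyte-like Control nuclei.

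Among the named classes, Rpl3l was highest in cardiomyocyte-like nuclei in Control and in platelet-like nuclei in CF-KI (73.4 CPM, from 7 UMIs). It is the muscle paralog of Rpl3, which takes the place of Rpl3 in ribosomes of heart and skeletal muscle (ENSMUSG00000002500, chromosome 17, 24727820 to 24736143, plus strand). In Control, cardiomyocyte-like nuclei had 61.0 CPM of Rpl3l and 31.4 of Rpl3, and Rpl3l was 66.0% (61.8 to 70.1) of the UMIs of the pair. In fibroblast-like Control nuclei the levels were 16.8 and 161 and Rpl3l was 9.42% (7.39 to 11.8) of the pair. It was 5.81% (3.96 to 8.20) in endothelial-like, 10.6% (6.92 to 15.4) in macrophage-like and 1.21% (0.147 to 4.31) in B cell-like Control nuclei. The cardiomyocyte-like interval overlapped with none of these.

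In CF-KI the pair differed less between classes. Rpl3l was 55.3% (50.9 to 59.7) of the pair in cardiomyocyte-like nuclei, below the Control interval, with 64.1 CPM of Rpl3l and 51.8 of Rpl3. Rpl3l was 20.6% (17.9 to 23.6) of the pair in fibroblast-like, 22.1% (17.4 to 27.5) in endocardial-like nuclei, both above the Control intervals, of which the endocardial-like one was 5.29 to 13.5. In macrophage-like nuclei (46 UMIs of Rpl3l and 184 of Rpl3) and in endothelial-like nuclei (8.17%, 6.62 to 9.95) the intervals of the libraries overlapped. The 8 cardiomyocyte markers, all detected, moved with this: together they were at 14965 CPM in fibroblast-like CF-KI nuclei and 4759 in Control, and at 18997 and 6681 in macrophage-like nuclei. Their part in the Rpl3l values was not tested.

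**Figure D3:**
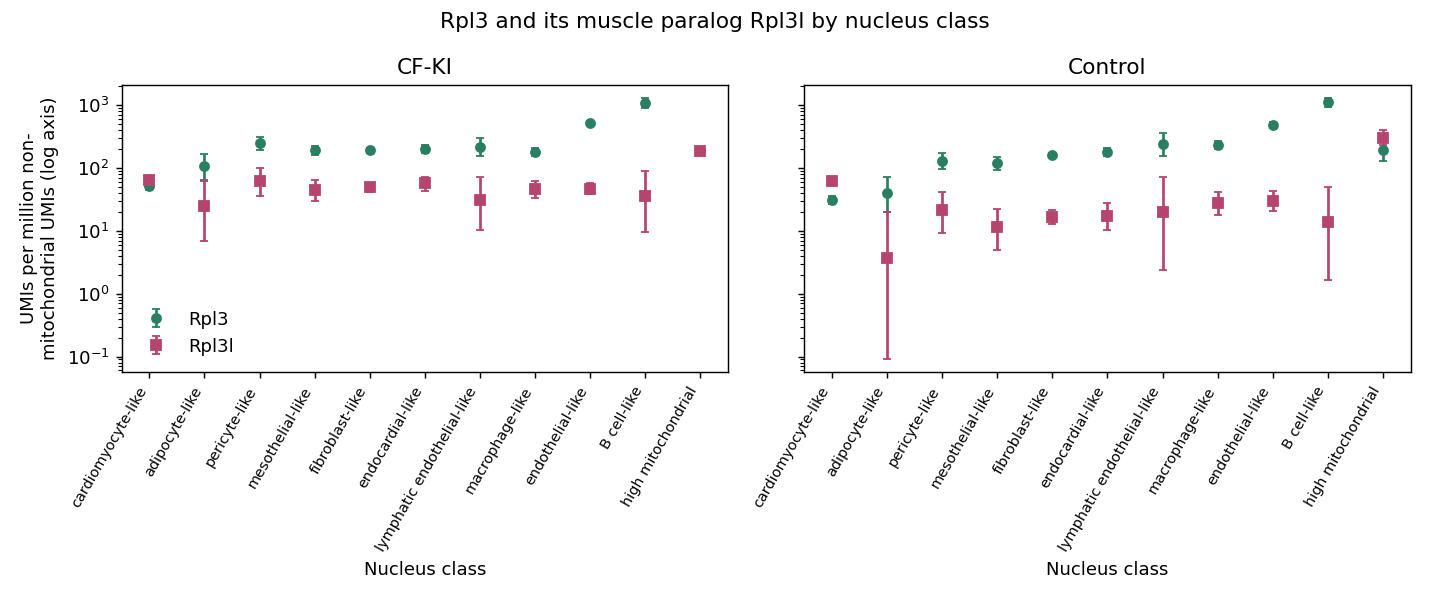
Rpl3 (circles) and Rpl3l (squares) in CPM (log axis) by nucleus class, CF-KI on the left and Control on the right, with exact Poisson 95% intervals. Rpl3l lies above Rpl3 in cardiomyocyte-like nuclei of both libraries and in the Control high mitochondrial cluster, the symbols coincide in that cluster of CF-KI, and Rpl3l lies below Rpl3 in the other named classes.

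The other detected paralogs lay at or below their partners in the 4 main classes. Rpl22l1 was level with Rpl22 in cardiomyocyte-like Control nuclei, with 227 UMIs of each, and was 40.7% (37.6 to 43.9) of the pair in fibroblast-like and 25.2% (21.5 to 29.2) in endothelial-like Control nuclei. Rpl7l1 was 22.0% (17.6 to 27.0) of its pair with Rpl7 in cardiomyocyte-like, 12.5% (10.6 to 14.5) in fibroblast-like and 8.38% (6.54 to 10.5) in endothelial-like Control nuclei, so that both pairs, like Rpl3l, had the highest paralog share of these classes in cardiomyocyte-like nuclei. Rps27l, known as a p53 target, had the lowest share of its pair with Rps27 there, 11.5% (9.08 to 14.2), against 22.0% in fibroblast-like and 19.1% in endothelial-like Control nuclei. In CF-KI these 3 values were 14.4%, 22.4% and 19.2%, with intervals that overlapped those of Control.

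Between libraries the members were shifted together. Over all kept nuclei the log2 ratio of CF-KI over Control was above 0 for 81 of 81 members, against 45.2% of 15961 genes, with a median of 0.71, against a median of -0.05 over all genes. At least a 2-fold higher level in CF-KI was found for 6 members, against 3.3% of all genes, and a 2-fold lower level for none, against 4.97%. The medians were 0.72 for 49 large and 0.70 for 32 small subunit members. The counting interval of each of the 81 lay above 0.

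**Figure D4:**
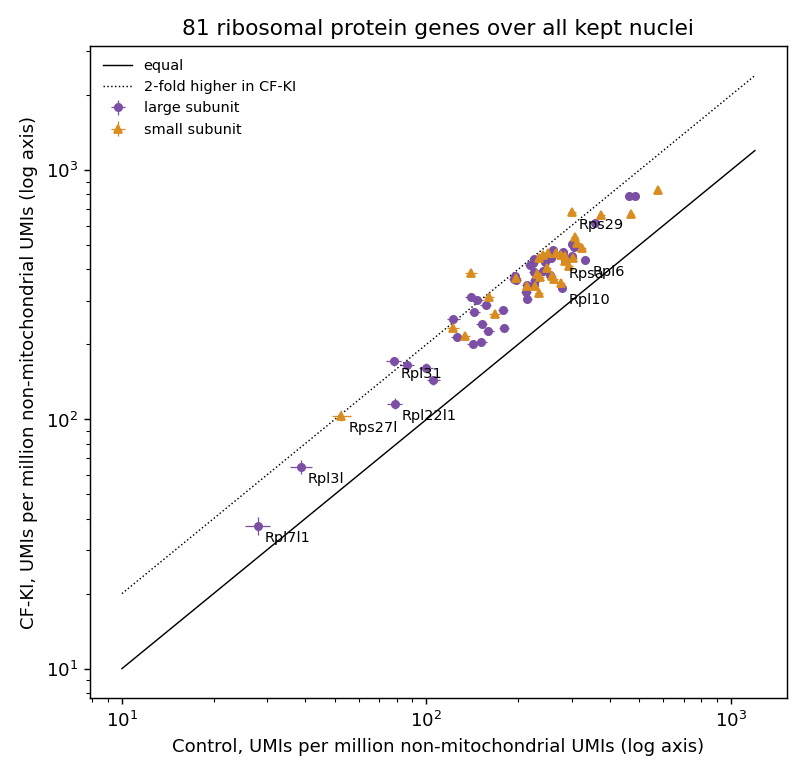
Levels of the 81 members with at least 20 UMIs in Control (x) and CF-KI (y), in CPM over all kept nuclei (log axes), with exact Poisson 95% intervals. Points lie between the line of equal level and a little above the dotted line of a 2-fold higher level, and Rps29 (678 in CF-KI and 300.4 in Control) is one of those above it.

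High ratios were found for Rps29, a small zinc-binding protein of the small subunit (ENSMUSG00000034892, chromosome 12, 69157722 to 69159186, minus strand). Its level was 678 CPM (665 to 692) in CF-KI and 300.4 (291.7 to 309.4) in Control, a log2 ratio of 1.17 (1.12 to 1.23). Rpl36 (1.15), Rpl31 (1.13) and Rpl27 (1.04) were also at least 2-fold higher. The lowest were Rpl10, which lies close to the peptidyl transferase centre (0.28, 0.22 to 0.34, with 338 CPM in CF-KI and 279 in Control), Rpsa (0.35), Rpl10a (0.37), Rpl6 (0.40) and Rpl7l1 (0.42).

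Ratios of single members were computed in the 4 main classes, of which cardiomyocyte-like nuclei had the highest median. Their median log2 ratio was 1.29, with 80 of 81 members above 0 (62.3% of 12134 genes) and 68 at least 2-fold higher (9.82% of genes). None was 2-fold lower (1.92% of genes). High ratios were those of Rpl36a (1.76, with 62.7 CPM in CF-KI and 18.5 in Control) and Rps23 (1.75, with 153 and 45.6). At the other end, Rpl29 was at -0.13 (-0.32 to 0.06), Rpl3l at 0.07 (-0.16 to 0.30) and Rpl10 at 0.35 (0.19 to 0.51), so that 2 members had intervals that hold 0.

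Fibroblast-like nuclei, the class in which Tcf21-driven Cre is known to act, had a median of 0.41, with 77 of 81 above 0 (47.7% of 12600 genes), 2 at least 2-fold higher (5.4% of genes) and none 2-fold lower (2.66% of genes). The highest was Rpl3l (1.56, 1.14 to 1.99). Rps29 had 0.96, and Rpl7l1 (-0.05), Rpl4 (-0.03) and Rpsa (-0.01) had intervals that hold 0. Endothelial-like nuclei had a median of 0.31, with 78 of 81 above 0 (43.3% of 10215 genes), none 2-fold higher (2.6% of genes) and none 2-fold lower (3.31% of genes). Rpl31 was highest (0.94) and Rpl39 had 0.75. Rpl7l1 was lowest (-0.22), and Rps4x had -0.02, both with intervals that hold 0.

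Macrophage-like nuclei had a median of 0.06, with 48 of 81 above 0 (47.8% of 9988 genes), none 2-fold higher (9.34% of genes) and none 2-fold lower (7.17% of genes). The intervals of 60 members held 0, 15 lay above and 6 below. Rpl3l (0.72, -0.02 to 1.49) rested on 46 and 24 UMIs. Among members with at least 100 UMIs, Rps27 was highest (0.62, 0.39 to 0.85) and Rps15a had 0.45, and Rpsa (-0.39, -0.61 to -0.16), Rpl3 (-0.36) and Rpl10a (-0.34) were lowest. The free RNA share of macrophage-like nuclei, as the median over 8 cardiomyocyte markers, was 64.2% in CF-KI and 34.7% in Control. Single markers gave 56.9% to 75.6% in CF-KI and 16.7% to 106% in Control, so the estimate is rough. With the median estimate subtracted, the median log2 ratio of the members was -0.43 and the share difference -0.777 points. With at least 500 genes per nucleus they were -0.11 and -0.246 points. The same subtraction left the other 3 classes above 0, with median ratios of 1.12 in cardiomyocyte-like, 0.25 in fibroblast-like and 0.30 in endothelial-like nuclei. Single markers spread widely there too, for example from 18.9% to 140% in endothelial-like Control nuclei. The subtraction was not repeated over these ranges. It takes away RNA with the make-up of the whole library, which includes member RNA of the nuclei themselves.

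Within that shift, members with shorter coding sequences had higher ratios. Over all kept nuclei the log2 ratio of the 81 members and the length of the coding sequence had a Spearman's rho of -0.69. The 27 members with the shortest coding sequences (up to 405 bases) had a median of 0.91 and the 27 with the longest (from 588 bases) 0.55. Rps29 codes with 168 bases and Rpl36 with 315, whereas Rpl10 has 642, Rpsa 885 and Rpl6 888. The rho was -0.38 in cardiomyocyte-like, -0.64 in fibroblast-like, -0.73 in endothelial-like and -0.56 in macrophage-like nuclei. Over all genes with a coding length it was -0.27 (13986 genes), with -0.33, -0.18, -0.16 and -0.01 in the 4 classes in the same order. These are descriptions across genes of 1 pair of libraries. With the Control level of the members, which enters the ratio, rho was -0.25 over all kept nuclei. It was -0.39, -0.37, -0.29 and -0.30 in the 4 classes in the same order. In cardiomyocyte-like nuclei it was thus about as strong as the rho with coding length, -0.38.

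Comparisons within a library gave rho values with coding length nearer to 0, between -0.14 and 0.13. The lowest was that of CF-KI cardiomyocyte-like nuclei with over 2% against at most 2% mitochondrial UMIs, -0.14, and macrophage-like over fibroblast-like nuclei gave -0.10 in Control and -0.07 in CF-KI. In Control, fibroblast-like over cardiomyocyte-like nuclei gave a median log2 ratio of 2.29 over the members and a rho with coding length of 0.13, and endothelial-like over fibroblast-like nuclei 1.44 and 0.02. In CF-KI the same pairs gave 1.40 and 0.07, and 1.33 and 0.05. Between libraries at over 10% mitochondrial UMIs, rho was -0.56 in fibroblast-like (3200 and 729 nuclei) and -0.55 in endothelial-like nuclei (1022 and 98 nuclei), with medians of 0.22 and 0.37. It was weaker in cardiomyocyte-like (-0.28, 189 and 59 nuclei) and macrophage-like nuclei (-0.33, 397 and 137 nuclei). With the Control level rho was -0.49, -0.35, -0.36 and -0.49 in these classes in the same order. In the cardiomyocyte-like and macrophage-like nuclei that was stronger than with coding length. In cardiomyocyte-like and macrophage-like nuclei at over 10% the members' median log2 ratio was below 0, at -0.34 and -0.47. In cardiomyocyte-like nuclei with at most 2% (502 and 2032 nuclei) the median was 1.11 and rho was -0.28. With the Control level rho was -0.39 there. Values over all genes were not computed for these subsets. The medians therefore do not tell a shift of the members from a shift of all genes. The comparisons between libraries all use the same 2 libraries and are not independent of each other.

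**Figure D5:**
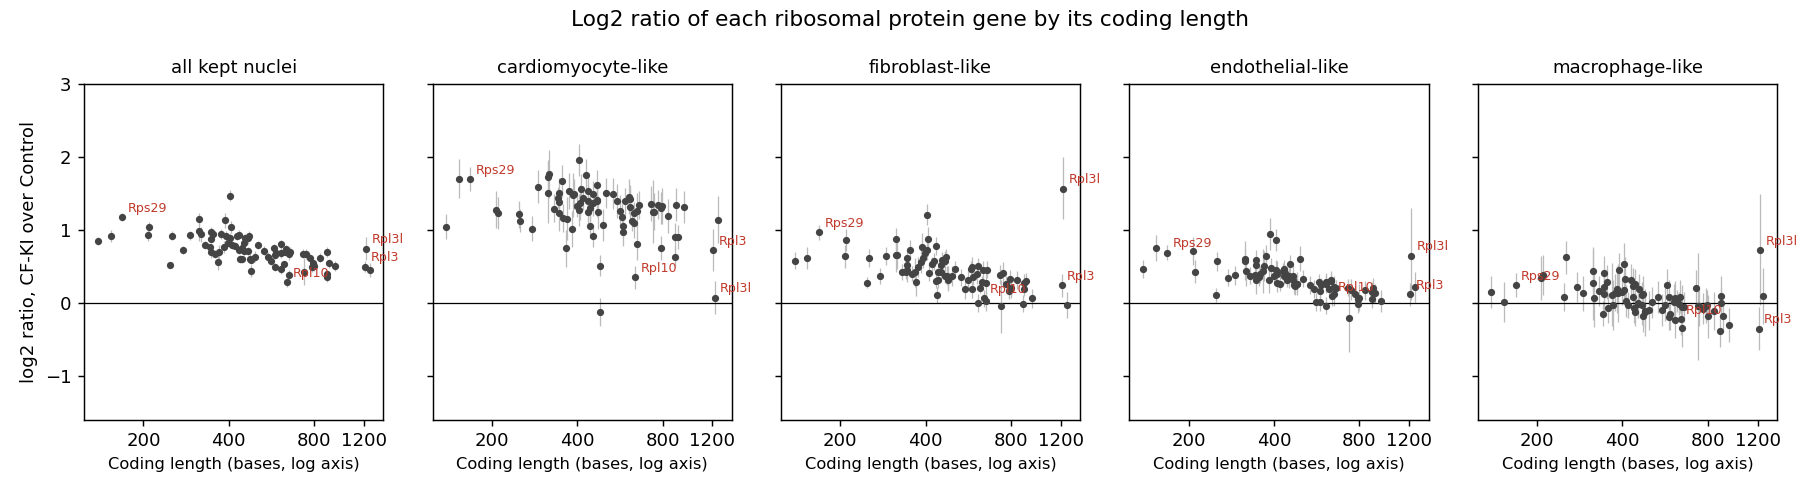
Log2 ratio of CF-KI over Control for each of the 81 members (points, with conditional exact binomial 95% intervals) by coding length in bases (log axis), in all kept nuclei and the 4 main classes. The short member Rps29 lies higher than the long ones Rpl10 and Rpl3 in each panel, and Rpl3l stands above the other long members in fibroblast-like nuclei.

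The members could also be compared along mitochondrial share inside the Control library, a comparison chosen after seeing the data. In Control cardiomyocyte-like nuclei, the 207 with over 2% mitochondrial UMIs had a member share of 1.31% and the 2032 with at most 2% had 0.407%. The median log2 ratio of high over low was 1.76, and 75 of 81 members were at least 2-fold higher, against 18.6% of all genes, and none 2-fold lower, against 4.12%. In Control fibroblast-like nuclei, the 729 with over 10% had 2.53% and the 489 with at most 2% had 1.18%, a median of 1.05, and 43 of 81 members were at least 2-fold higher, against 9.41% of genes, and none 2-fold lower, against 3.7%. The rho with coding length was 0.03 and 0.07 in these comparisons. The cardiomyocyte-like class pools a larger cluster and a smaller one of 109 Control nuclei, led by genes such as Myl4, Nppa, Sln and Myl7. Their median mitochondrial shares in Control were 0.357% and 1.73%, and their member shares 0.433% and 1.53%. The part of the smaller cluster in the cardiomyocyte-like comparison was not tested.

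Over all kept nuclei the medians of other genes of the translation machinery were lower than the members' 0.71, a difference that was not tested. All 5 ribosomal proteins that the naming rule misses, among them Fau, Rack1, Rpl36al and Rps27rt, were above 0 over all kept nuclei, with a median log2 ratio of 0.66, and the highest was Rps27rt with 1.52. Of 16 mRNAs of translation factors and related proteins known to carry a 5′ TOP, 16 were above 0 with a median of 0.48. Tpt1, a translationally controlled tumour protein, had 1131 CPM in CF-KI and 652 in Control (0.79), and the elongation factor Eef2 had 211 and 193 (0.13). Among 7 noncoding 5′ TOP hosts of small nucleolar RNAs the median was 0.41, from -0.20 for Snhg5 (-0.46 to 0.06) to 0.98 for Snhg6, and none of the 28 genes of these 3 lists was 2-fold higher except Rps27rt.

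Genes that make or control ribosomes lay nearer to the median of all genes, -0.05. The 23 genes of ribosome biogenesis had a median of 0.06 with 16 above 0, from -0.44 for Polr1b, a subunit of RNA polymerase I, to 0.80 for Nop10, part of the box H/ACA particles. The 8 genes of mTOR signalling and 5′ TOP control had a median of 0.11, with Rptor, the scaffold of mTOR complex 1, at -0.42 (-0.57 to -0.27) and Myc at 0.20 (-0.38 to 0.80). None of these 31 genes was 2-fold higher or lower.

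Mitochondrial ribosomal proteins, encoded in the nucleus and translated in the cytoplasm, had a median of 0.57 with 76 of 78 above 0 and 7 at least 2-fold higher, from -0.23 for Mrpl38 to 1.24 for Mrps28. Nuclear-encoded respiratory chain subunits had a larger shift than the members, with a median of 1.48 and 68 of 74 at least 2-fold higher, from 0.54 for Cox6a1 to 2.32 for Cox7a1 (362 CPM in CF-KI and 72.3 in Control). The 4 haemoglobin genes had a median of 3.99. The 4 detected genes on the list of nuclear retained RNAs were all below 0, with a median of -0.32, from -0.67 for Meg3 to -0.01 for Neat1 (-0.03 to 0.01). By class the retained RNAs differed. Their medians were 0.52 in macrophage-like (4 of 4 above 0), 0.13 in cardiomyocyte-like (3 of 4), -0.10 in fibroblast-like (1 of 4) and -0.33 in endothelial-like nuclei (0 of 4). In the same order, 47.8%, 62.3%, 47.7% and 43.3% of all genes were above 0, with medians of -0.04, 0.16, -0.02 and -0.08. Summed, retained RNAs were 42.0% of non-mitochondrial UMIs in CF-KI and 47.2% in Control cardiomyocyte-like nuclei. The sum was also lower in CF-KI in fibroblast-like and endothelial-like nuclei, and higher in macrophage-like nuclei (21.3% against 18.8%).

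These lists did not move together in each class. In fibroblast-like nuclei the respiratory chain subunits had a median of 1.54 and the members 0.41, whereas in cardiomyocyte-like nuclei the medians were 1.47 and 1.29. The ribosomal proteins outside the naming rule had 0.42 in fibroblast-like nuclei, close to the members, and the snoRNA hosts had 0.34 in macrophage-like nuclei, where the members had 0.06. Along mitochondrial share inside Control, the order differed again: in fibroblast-like nuclei of high over low mitochondrial share the respiratory chain subunits had a median of 0.31 and the members 1.05, and in cardiomyocyte-like nuclei they had 1.82 and 1.76. The haemoglobin genes were at 1.82 in the cardiomyocyte-like and at -3.67 in the fibroblast-like comparison. The list of 5′ TOP translation factors had 1.58 and 0.68, nearer to the members than the mitochondrial ribosomal proteins, with 0.71 and 0.26.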

How the data were processed

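Whole-number UMI counts per gene and barcode were deposited. Per the file headers they come from Cell Ranger 6.1.1, on mm10 per the submitters' processing notes; intron use and cell calling are not given in the sources used here. Features sharing a symbol were summed. Barcodes had at least 200 genes and no mitochondrial limit. Scrublet (scanpy 1.11.5) scored doublets; its automatic threshold marked 2286 CF-KI and 0 Control barcodes, so the expected share was called in each (1873 and 1013). Both libraries were clustered together (2000 variable genes without members, listed genes and mitochondrial genes, 30 components, 15 neighbours, leidenalg 0.10.2, resolution 0.8). A cluster took the best of 17 marker lists, with at least 3 markers raised; the cluster over 50% mitochondrial was left unnamed, a rule added after seeing the data. Members and lists were chosen with earlier results of these data known.

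UMIs were summed per library and class. Shares have exact binomial (Clopper-Pearson) intervals, differences square-and-add, levels exact Poisson and ratios conditional exact binomial intervals; medians used 0.5 added UMIs. A gene counts as called at a 2-fold difference with at least 20 UMIs. Coding lengths are the longest per gene in GENCODE vM21 (GRCm38), which holds all 83 members by identifier. The free RNA estimate is the median, over markers of another class, of their class level over the library level. The library level is that of the deposited barcodes, with no profile of empty droplets. Named genes are the 10 highest, 5 lowest, paralogs, 5 widest and the extreme ratios (5 over all nuclei with at least 200 UMIs, 3 per class with at least 100, 1 per list); some that the rule names are not reported here. Interval and ratio code was tested on simulated data. edgeR 4.0.16 gave TMM factors.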

Additional observations from a re-analysis of the deposited data

Results flagged for a closer look

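The direction of the library difference was not the same in all classes. The pooled member share of the high mitochondrial cluster was -0.829 points in CF-KI minus Control, whereas it was positive in each of the other 10 classes compared. The median barcode of that cluster had 4.56% in CF-KI and 3.82% in Control, so the direction there depended on the measure. At matched mitochondrial share the macrophage-like difference was -0.150 points, whereas it was positive in cardiomyocyte-like, fibroblast-like and endothelial-like nuclei. Both pooled differences stand out because a class moved against the others. The difference between classes was not tested, since each library is a single sample.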

How the results depend on the processing

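Over all kept nuclei the difference in member share, 1.21 points, stayed above 0 in all 9 alternatives. It was 0.0973 with at most 5% mitochondrial UMIs, 1.09 with at least 500 genes, 1.27 with haemoglobin out of the denominator, 1.31 after thinning and 1.15 without barcodes over 50% mitochondrial; it was 1.21 with doublets kept. In alternatives chosen after seeing the data it was 1.24 without B cell-like, 0.876 without endothelial-like nuclei and 1.17 without the high mitochondrial cluster. The matched difference, 0.161, was -0.584 with at most 5% mitochondrial UMIs, 0.0232 with at least 500 genes, 0.188 with doublets kept, 0.227 without haemoglobin and 0.407 after thinning, and, added after seeing the data, 0.208 without B cell-like, -0.0472 without endothelial-like nuclei and 0.180 without the high mitochondrial cluster. The cause was not tested.

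By class, cardiomyocyte-like, fibroblast-like and endothelial-like differences kept their direction in all 8 alternatives (0.346 to 0.666, 0.441 to 1.54 and 0.819 to 2.28 points), as did the members' median log2 ratios in all 10 (1.12 to 1.33, 0.25 to 0.93 and 0.17 to 0.38). Macrophage-like nuclei reversed with at least 500 genes (-0.246 points, median -0.11) and with the median free RNA estimate subtracted (-0.777 points, median -0.43). Elsewhere they were at most 0.871 points and 0.33. With at most 5% mitochondrial UMIs under 50 CF-KI macrophage-like nuclei remained and no value was computed. No replicate could be left out with 1 library per group. No paired analysis was possible because the groups share only replicate number 1.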
